A study of Mus musculus with 96 samples.

Results

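The 10 genes described here, Fos, Fosb, Jun, Junb, Egr1, Egr2, Arc, Npas4, Ier2 and Dusp1, are immediate early genes, which cells transcribe from existing factors soon after a stimulus. They were taken by gene name from a given list, and they are 10 of the 56748 genes of the count table. Immediate early genes carry sites for factors such as SRF and CREB, which kinases switch on when growth factors, hormones, stress or calcium reach a cell, and their RNAs decay quickly. In cortex they are widely read as marks of recent neuronal activity, and in liver and muscle they respond to feeding, hormones, contraction and handling of the tissue.

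RNA was measured in liver, muscle and cortex of 32 mice fed ad libitum (AL) or kept on intermittent fasting (IF), by poly-A selected, directional libraries. Mice 1-16 are labelled male, and the study's methods describe male C57BL/6 mice whose diets began at 6 weeks of age and ran for 4 months, with IF mice going without food for 16 h a day, from 16:00 to 08:00. They were killed between 07:00 and 12:00 and perfused with saline, which the methods describe as the close of the daily fast for IF mice, and the hour of each death is not given. Mice 25-40 are labelled female, and the sources state neither their strain, age and fasting hours nor their time of death. Each set held 8 AL mice (1-8 and 25-32) and 8 IF mice (9-16 and 33-40), each giving 1 library per tissue. Mice are told apart by the number in the library names, and that tissues with the same number share a mouse rests on those names. Sex and set of mice are thus the same factor and cannot be told apart.

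The sex-linked genes of 95 of the 96 libraries matched their label, and those of 1 did not. That library, cortex of AL mouse 1, is labelled male but held a Xist level of 213 CPM (counts scaled to the library's total), Xist being the RNA that silences an X chromosome in female cells, and 0 CPM of the Y-linked gene Ddx3y, and it was left out. In it Fos stood at 5.64 CPM, against 22.2 CPM in the lowest of the other 7 AL cortex libraries of mice 1-16, and each of the other 9 members was also below the lowest of those libraries. With it the cortex comparison of mice 1-16 called 295 genes, and without it 1332, while the count of members called was 0 either way. The tissue labels fit their markers: in mice 1-16 on AL the summed median was 56864 CPM for 5 hepatocyte genes in liver, 133209 CPM for 5 muscle fibre genes in muscle and 6093 CPM for 5 neuronal genes in cortex. The 95 libraries held between 26097314 and 49838004 counts on genes.

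In AL mice the members other than Ier2 and Jun had their highest mean level per length in cortex. For Dusp1 muscle was within the spread of cortex, and under IF its mean was higher in muscle (38.7 and 34.3 TPM in mice 1-16). Ier2 was highest in liver and Jun in muscle, each within the spread of cortex. In mice 1-16 Ier2 stood at 60.7 ± 12.6 TPM (mean ± SD) in liver and 47.7 ± 21.0 TPM in cortex. Jun stood at 41.4 ± 5.57 TPM in muscle and 41.0 ± 12.9 TPM in cortex. Per length of gene, in TPM (counts per base of gene, scaled to a common sum; mean ± SD), Egr1 (357 ± 136, n = 7), Arc (335 ± 200) and Junb (211 ± 109) led in AL cortex of mice 1-16, and in mice 25-40 Arc (404 ± 148, n = 8), Egr1 (245 ± 68.1) and Junb (242 ± 94.0) did. Neighbours among those 3 did not differ beyond their spread. A gap followed to the next genes, between 63.4 TPM (Fos) and 41.0 TPM (Jun) in mice 1-16, with Ier2 and Dusp1 between them and spreads that overlapped. Npas4 (22.7 ± 9.12), Fosb (17.9 ± 6.71) and Egr2 (13.5 ± 7.29) closed the order there, again with overlapping spreads.

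In liver and muscle other members led. Ier2 was the most abundant member in AL liver, with 60.7 ± 12.6 TPM in mice 1-16 and 85.3 ± 17.7 TPM in mice 25-40 (SD, n = 8 each), followed by Junb and Dusp1. Ier2 stood apart from Junb by more than the spread in mice 1-16 (Junb 24.2 ± 7.83) but not in mice 25-40 (Junb 60.9 ± 37.4), and Junb and Dusp1 did not differ beyond it in mice 1-16. In mice 25-40 Dusp1 stood at 13.8 ± 13.7 TPM, and AL mouse 29 widened the spread of both genes. Jun (41.4 ± 5.57) and Dusp1 (33.2 ± 9.48) led in AL muscle of mice 1-16, as they did in mice 25-40 (48.8 ± 3.93 and 46.3 ± 6.74), within their spread of each other. Npas4, whose product neurons make on calcium entry, was at 0 counts in 7 of 8 AL livers of mice 1-16 and reached at most 0.274 CPM in AL muscle of those mice. A filter on low counts therefore left 7 members to test by diet in liver of mice 1-16 (Egr2, Arc and Npas4 fell out), 6 in liver of mice 25-40 (Fosb fell out too), 9 in muscle (Npas4 fell out) and all 10 in cortex.

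The question of each diet comparison is whether IF shifts these genes within 1 tissue. Across the 6 comparisons 3 calls of members were made, Jun higher in liver and in muscle and Ier2 lower in muscle, all in mice 1-16. Calls were made with the quasi-likelihood test of edgeR, at a Benjamini-Hochberg adjusted p under 0.05 over every gene tested. In liver of mice 1-16, 1 of 7 members passed, higher in IF, while 44.6% of 16204 genes did (23.5% higher and 21.1% lower). In muscle of mice 1-16, 2 of 9 members passed, 1 in each direction, beside 23.1% of 15025 genes (11.5% higher, 11.6% lower), a share near the background that says nothing about the members as a group. For cortex of mice 1-16 edgeR called 0 of 10 members beside 7.21% of 18462 genes (3.79% higher, 3.43% lower), 3 members and 23.8% of all genes had an unadjusted p under 0.05, and DESeq2 called 2 members.

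Mice 25-40 gave almost no calls among all genes. In liver edgeR called 0 of 6 members and 0% of 15938 genes in either direction, with 0 members and 5.77% of genes at an unadjusted p under 0.05 and 0 members called by DESeq2. In muscle it called 0 of 9 members and 0.00653% of 15308 genes, the 1 gene being higher in IF and 0% lower, with 4 members and 10.7% of genes at an unadjusted p under 0.05 and 0 members by DESeq2. In cortex it called 0 of 10 members and 0.0109% of 18403 genes, those 2 genes being lower in IF (0.0109%) and 0% higher, with 3 members and 11.2% of genes at an unadjusted p under 0.05 and 1 member, Ier2, by DESeq2.

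Signs and medians show where the members leaned. In cortex of mice 1-16 the fitted log2 fold change was negative for 10 of 10 members, with a median of -0.40 beside -0.005 over all genes tested, and in cortex of mice 25-40 it was negative for 8 of 10, with a median of -0.52 beside 0.003. In muscle of mice 25-40 it was negative for 8 of 9, with a median of -0.40 beside -0.02. The median was near that of all genes in muscle of mice 1-16 (0.06 beside 0.01), and it was 0.17 beside 0.06 in liver of mice 1-16 and -0.35 beside -0.01 in liver of mice 25-40. These medians move with single mice: without AL mouse 29 that of liver in mice 25-40 was 0.15, with 1 of 6 members negative, and without AL mouse 3 that of cortex in mice 1-16 was -0.23, with 9 of 10 negative. Without IF mouse 14 that of muscle in mice 1-16 was -0.18, and without IF mouse 33 that of cortex in mice 25-40 was -0.83. The members of a tissue share their mice and vary together, as shown further on, so these signs are not independent observations.

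**Figure D1:**
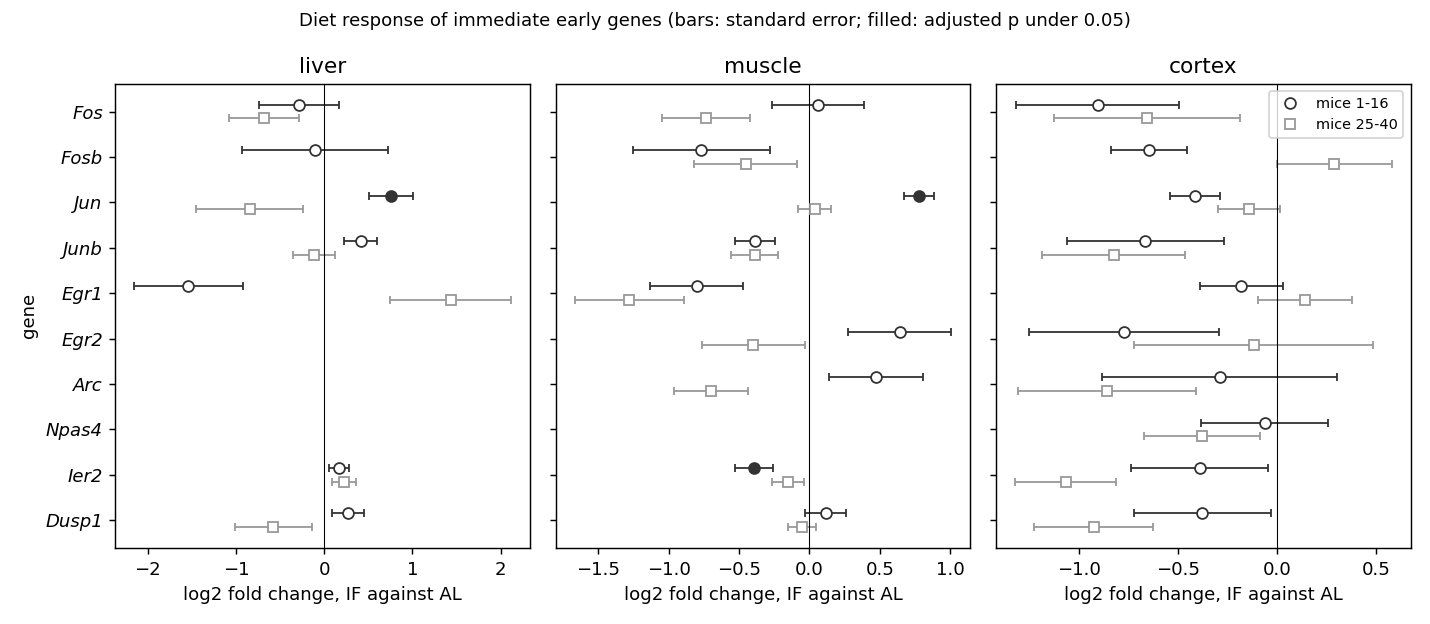
Fitted log2 fold change of IF against AL for each member tested (y axis: gene) in liver, muscle and cortex, with circles for mice 1-16, squares for mice 25-40 and bars for the standard error; filled symbols passed an adjusted p under 0.05 by edgeR. The 3 filled symbols are Jun in liver (0.75) and muscle (0.78) and Ier2 in muscle (-0.40), and in cortex all 10 circles lie below 0.

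Jun, a basic leucine zipper protein that pairs with Fos proteins, or with itself, to form the factor AP-1, was higher under IF in liver and in muscle of mice 1-16. In liver its level lay between 5.40 and 19.2 CPM in the 8 AL mice (median 8.44) and between 9.99 and 25.1 CPM in the 8 IF mice (median 20.8), a rise of 1.69-fold (log2 fold change 0.75, SE 0.25, edgeR adjusted p = 0.0198). All 8 IF livers were above the AL median and 5 were above the highest AL liver, so the groups overlapped. Such ranges and counts of mice, here and below, use CPM over library totals, while fold changes use TMM scaling factors. In these livers the median share of counts on mitochondrial genes was 20.6% under AL and 10.7% under IF. Its part in the CPM of other genes was not tested. Leaving out IF mouse 11 ended the call (adjusted p = 0.0503), as did dropping the filter on low counts (adjusted p = 0.0605).

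In muscle of mice 1-16, Jun lay between 42.3 and 69.8 CPM in AL mice (median 63.0) and between 91.8 and 140 CPM in IF mice (median 108). The groups did not overlap, and all 8 IF mice were above the highest AL mouse. The rise was 1.72-fold (log2 fold change 0.78, SE 0.11, edgeR adjusted p = 3.19e-05), and it was called whichever mouse was left out. In muscle of mice 25-40 Jun lay between 63.7 and 76.9 CPM under AL (median 68.1) and between 39.9 and 95.5 CPM under IF (median 67.0), with 4 IF mice on each side of the AL median. Whether the responses of the mouse sets differ is tested further on.

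Jun in cortex of mice 1-16 pointed the other way without passing by edgeR with every library. It lay between 33.5 and 68.1 CPM in 7 AL mice (median 37.8) and between 27.3 and 35.7 CPM in 8 IF mice (median 32.8), a log2 fold change of -0.42 (SE 0.13, edgeR adjusted p = 0.0533), and 8 of 8 IF mice were below the AL median. DESeq2 called it (adjusted p = 0.0168), as did edgeR without AL mouse 4, 5, 6 or 8 (adjusted p = 0.0465, 0.0486, 0.0498 and 0.0302). Its log2 fold change in cortex of mice 25-40 was -0.14 (SE 0.16), with 6 of 8 IF mice below the AL median, and in liver of those mice it was -0.84 (SE 0.61), where AL mouse 29 alone stood at 80.0 CPM against at most 22.8 CPM in the other 7, and 0.09 (SE 0.39) without that mouse.

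Junb, an AP-1 subunit that can dampen Jun, passed in no diet comparison by edgeR with TMM factors and every library, though it did under some other settings. In liver of mice 1-16 it lay between 21.4 and 46.3 CPM under AL (median 28.8) and between 27.6 and 64.9 CPM under IF (median 44.1), with 7 of 8 IF mice above the AL median (log2 fold change 0.42, SE 0.19, edgeR adjusted p = 0.0763). It passed there by edgeR with library totals alone (adjusted p = 0.0314), with a replicate block (0.0118) and without AL mouse 1 or 8 or IF mouse 10 (0.0427, 0.0196 and 0.0429). Its log2 fold change in liver of mice 25-40 was -0.12 (SE 0.24), with 4 IF mice on each side of the AL median, and 0.21 (SE 0.14) without AL mouse 29. All 8 IF mice were, in muscle of mice 1-16, below the AL median (log2 fold change -0.39, SE 0.14, edgeR adjusted p = 0.0529), and it passed by DESeq2 (adjusted p = 0.0329) and by edgeR without AL mouse 7 or 8 or IF mouse 9 or 12 (0.00554, 0.0223, 0.0496 and 0.0476). Of the IF muscles of mice 25-40, 7 of 8 were below the AL median (log2 fold change -0.39, SE 0.17, edgeR adjusted p = 0.43). In cortex its median was 142 CPM under AL and 77.3 CPM under IF in mice 1-16, and 180 CPM and 102 CPM in mice 25-40, with log2 fold changes of -0.67 (SE 0.40) and -0.82 (SE 0.36) and groups that overlapped in each set. With a replicate block the value of mice 1-16 was -0.92 and passed by edgeR (adjusted p = 0.0333). That fit also lacked IF mouse 9, whose replicate number is that of the omitted AL mouse 1. Junb in IF mouse 9 lay 1.01 above its group's mean on the log2 scale, so block and missing library cannot be told apart.

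Fos, the partner of Jun in AP-1 and a common marker of active neurons, and Fosb, which gives rise to a long-lived splice form, passed in no diet comparison by edgeR with every library. Fos lay between 22.2 and 108 CPM in AL cortex of mice 1-16 (median 42.1) and between 7.76 and 52.9 CPM in IF cortex (median 20.5), and 6 of 8 IF mice were below the AL median (log2 fold change -0.91, SE 0.41, edgeR adjusted p = 0.201). Among cortices of mice 25-40, 7 of 8 IF mice were below the AL median of 51.1 CPM (log2 fold change -0.66, SE 0.47). Fosb lay between 20.9 and 53.2 CPM in AL cortex of mice 1-16 (median 30.96) and between 17.4 and 33.9 CPM in IF cortex (median 22.7), with 7 of 8 IF mice below the AL median (log2 fold change -0.65, SE 0.19, edgeR adjusted p = 0.0537, and 0.00512 by DESeq2). It passed by edgeR without AL mouse 6 (adjusted p = 0.0183), without IF mouse 10 (0.0281) and without AL mouse 2 and IF mouse 10 (0.0435). In mice 25-40 the fitted change of Fosb in cortex was positive (0.29, SE 0.29), with 4 IF mice on each side of the AL median.

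Outside cortex both Fos genes were scarce. Fos had medians between 1.11 and 1.76 CPM in the 4 liver groups and between 3.798 and 5.82 CPM in the 4 muscle groups, and Fosb had medians below 1 CPM in all 8 of these groups. The lowest unadjusted p of Fos there was in muscle of mice 25-40, where 7 of 8 IF mice were below the AL median (log2 fold change -0.74, SE 0.31, edgeR adjusted p = 0.428). Without AL mouse 29, the highest AL muscle of that set for Fos, it was -0.61 (SE 0.31, edgeR adjusted p = 0.632). In liver of those mice all 8 IF mice were below the AL median of 1.76 CPM (log2 fold change -0.68, SE 0.40, edgeR adjusted p = 0.85), and the value was -0.49 (SE 0.40) without AL mouse 29.

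Egr1, a zinc finger factor induced by mitogens and by synaptic activity, varied widely between livers. In mice 1-16 it lay between 3.62 and 95.6 CPM under AL (median 14.2) and between 4.35 and 18.7 CPM under IF (median 8.24), with 7 of 8 IF mice below the AL median (log2 fold change -1.54, SE 0.61, edgeR adjusted p = 0.0551, and 0.016 by DESeq2). In mice 25-40 it lay between 2.45 and 33.3 CPM under AL (median 10.8) and between 3.38 and 110 CPM under IF (median 18.8), with 7 of 8 IF mice above the AL median (log2 fold change 1.43, SE 0.68, edgeR adjusted p = 0.85). The groups overlapped in each set, and the top of each range rested on few mice: AL mouse 8 in the first set, and IF mice 37 (110 CPM), 34 (71.8 CPM) and 40 (40.8 CPM) in the second. Without AL mouse 8 the log2 fold change of mice 1-16 was -0.62 (SE 0.38, edgeR adjusted p = 0.208), while it passed by edgeR without AL mouse 2, 3 or 4 or IF mouse 12 (adjusted p = 0.0408, 0.03, 0.0392 and 0.0374).

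In muscle Egr1 leaned lower under IF in each set. Its median was 3.796 CPM under AL and 3.14 CPM under IF in mice 1-16 (log2 fold change -0.80, SE 0.33, edgeR adjusted p = 0.0938) and 7.19 and 4.70 CPM in mice 25-40 (log2 fold change -1.28, SE 0.39, edgeR adjusted p = 0.306). Without AL mouse 6 the value of mice 1-16 passed by edgeR (-0.92, adjusted p = 0.0418). AL mouse 29, at 35.03 CPM, bears on the value of mice 25-40, which without it was -0.91 (SE 0.30, edgeR adjusted p = 0.501). In each set 7 of 8 IF mice were below the AL median, and in mice 25-40, 6 were below the lowest AL mouse. In cortex, where Egr1 reached 772 CPM, its log2 fold changes were -0.18 (SE 0.21) in mice 1-16 and 0.14 (SE 0.24) in mice 25-40.

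Egr2, which drives myelination in Schwann cells and follows activity in neurons, was measured mainly in cortex. It lay between 7.04 and 30.8 CPM in AL cortex of mice 1-16 (median 14.2) and between 2.35 and 18.4 CPM in IF cortex (median 7.34), with 6 of 8 IF mice below the AL median (log2 fold change -0.77, SE 0.48, edgeR adjusted p = 0.354). In mice 25-40 the medians were 12.6 and 7.02 CPM, but the lowest AL mouse (0.982 CPM) and the lowest IF mouse (0.994 CPM) reached the same floor, and the fitted log2 fold change was -0.12 (SE 0.60). In muscle its group medians were near or below 1 CPM.

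Arc, whose RNA travels to dendrites and whose protein helps remove AMPA receptors from synapses, varied more between cortices of the same group (SD 1.10 on the log2 scale) than any member but Egr2 (1.26). It lay between 127 and 654 CPM in AL cortex of mice 1-16 (median 315) and between 42.7 and 741 CPM in IF cortex (median 154), with 5 of 8 IF mice below the AL median (log2 fold change -0.29, SE 0.59, edgeR adjusted p = 0.817). In mice 25-40 it lay between 112 and 563 CPM under AL (median 460) and between 57.4 and 610 CPM under IF (median 196), with 7 of 8 IF mice below the AL median (log2 fold change -0.86, SE 0.45, edgeR adjusted p = 0.478). The IF group of each set thus held the mouse with the highest Arc as well as the mouse with the lowest. In muscle, at about 1 CPM, all 8 IF mice of mice 25-40 were below the AL median (log2 fold change -0.70, SE 0.26, edgeR adjusted p = 0.375), while 6 of 8 were above it in mice 1-16 (0.47, SE 0.33). Without AL mouse 29, the highest AL muscle of its set for Arc (2.49 CPM), the value of mice 25-40 was -0.50 (SE 0.24, edgeR adjusted p = 0.607).

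Npas4, a neuron-specific factor that adjusts inhibitory synapses, was tested by diet in cortex only. It lay between 17.1 and 53.8 CPM under AL in mice 1-16 (median 29.2) and between 14.5 and 53.9 CPM under IF (median 24.5), a log2 fold change of -0.06 (SE 0.32), which without AL mouse 3 was 0.11 (SE 0.32). In mice 25-40, 7 of 8 IF mice were below the AL median of 32.6 CPM, and IF mouse 33, at 61.0 CPM, was above every AL mouse (log2 fold change -0.38, SE 0.29, edgeR adjusted p = 0.614). Without that mouse the value was -0.68 (SE 0.22, edgeR adjusted p = 0.386).

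Ier2, a nuclear protein induced by growth factors, was lower under IF in muscle of mice 1-16. It lay between 7.14 and 13.3 CPM in AL mice (median 8.75) and between 6.17 and 8.83 CPM in IF mice (median 8.17), and it fell by 0.40 on the log2 scale (SE 0.14, edgeR adjusted p = 0.0375). The groups overlapped, with 7 of 8 IF mice below the AL median, and AL mice 1, 2 and 3 (12.9, 12.1 and 13.3 CPM) stood above every IF mouse. The call was lost without AL mouse 1, 2 or 3 (adjusted p = 0.0913, 0.0788 and 0.0908) or IF mouse 11, 13, 15 or 16 (0.0606, 0.0506, 0.075 and 0.0738), and when libraries were scaled by their totals alone (0.0781).

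Ier2 in cortex of mice 25-40 had the lowest unadjusted p of any member there. It lay between 19.2 and 57.4 CPM under AL (median 36.3) and between 10.7 and 35.7 CPM under IF (median 15.6), with 8 of 8 IF mice below the AL median and 6 below the lowest AL mouse. The log2 fold change was -1.07 (SE 0.26), and it missed the threshold by edgeR (adjusted p = 0.238) but not by DESeq2 (adjusted p = 0.0194). The same change in mice 1-16 was -0.39 (SE 0.35), with 5 of 8 IF mice below the AL median, and without AL mouse 3 it was -0.17 (SE 0.34). In liver all 8 IF mice of mice 1-16 were above the AL median of 51.6 CPM, a count that uses library totals. The log2 fold change, which uses TMM factors, was only 0.17 (SE 0.11, edgeR adjusted p = 0.236).

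Dusp1, a phosphatase that switches off MAP kinases and is itself induced by them and by glucocorticoids, behaved much like Ier2 in cortex. In mice 25-40 it lay between 29.4 and 89.4 CPM under AL (median 69.6) and between 18.3 and 81.8 CPM under IF (median 32.7), with 7 of 8 IF mice below the AL median (log2 fold change -0.93, SE 0.30, edgeR adjusted p = 0.349). In mice 1-16 it was -0.38 (SE 0.34), with 6 of 8 below, and -0.15 (SE 0.33) without AL mouse 3. In muscle, where it was among the most abundant members, its log2 fold changes were 0.12 (SE 0.15) and -0.05 (SE 0.10), and in liver 0.27 (SE 0.18) and -0.58 (SE 0.43), for mice 1-16 and 25-40 in turn. The value of liver in mice 1-16 passed by edgeR without AL mouse 2 and IF mouse 10 (adjusted p = 0.0394). That of liver in mice 25-40 rests on AL mouse 29 (79.9 CPM, nearest 19.2), and without it was 0.04 (SE 0.26).

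Single mice bear on the cortex values of other members too. Without AL mouse 3 the log2 fold changes of mice 1-16 were -0.60 for Fos, -0.40 for Junb, -0.09 for Egr1, -0.51 for Egr2 and -0.05 for Arc. Without IF mouse 33 those of mice 25-40 were -0.98 for Fos, 0.15 for Fosb, 0.04 for Egr1, -0.46 for Egr2 and -1.21 for Arc. AL mouse 29 was the lowest of the AL cortices of that set for 9 members. Leaving it out gave 0.17 for Fosb, 0.03 for Egr1 and -0.29 for Egr2, with a median over the members of -0.63.

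Whether the sets of mice responded differently was tested as an interaction of set and diet, with sex and set inseparable. In muscle 1 of 9 members passed, beside 14.2% of 16346 genes: the diet response of Jun was smaller in mice 25-40 than in mice 1-16 (log2 difference -0.73, SE 0.16, edgeR adjusted p = 0.0027). In liver 1 of 8 members passed, beside 23.7% of 17658 genes: the response of Egr1 was higher in mice 25-40 (log2 difference 2.99, SE 0.93, edgeR adjusted p = 0.0187). Without AL mouse 8, whose Egr1 was 95.6 CPM, that difference was 2.07 (SE 0.81, adjusted p = 0.0678), no longer past the threshold. The 8 liver members include Arc and Fosb, at low counts and with SEs of 1.35 and 1.32. The filter had removed Arc from the liver diet comparison of each set and Fosb from that of mice 25-40. The contrast of AL livers, given below, keeps the same 8. In cortex edgeR called 0 of 10 members beside 2.03% of 19547 genes, with 1 member and 15.4% of genes at an unadjusted p under 0.05 and 0 members called by DESeq2. For the other members a difference between the sets was not shown, which does not show that they respond alike.

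AL mice of the sets also differed in level. In liver 1 of 8 members passed, beside 20% of genes: Junb was higher in AL mice of 25-40 than of 1-16 (log2 difference 1.04, SE 0.23, edgeR adjusted p = 0.00127), where its medians were 64.3 and 28.8 CPM. AL mouse 29, with 174 CPM of Junb, bears on that value, and without it the log2 difference was 0.70 (SE 0.18, adjusted p = 0.00383). Dusp1 in AL livers missed the threshold by edgeR with TMM factors (log2 difference -0.95, SE 0.35, adjusted p = 0.0545), and passed with RLE factors (-0.98, adjusted p = 0.0451), by DESeq2 (-0.98, adjusted p = 0.0243) and, by edgeR, without AL mouse 29 (-1.58, SE 0.25, adjusted p = 2.17e-05). In muscle 2 of 9 members passed, beside 38.4% of genes: Junb (log2 difference 0.51, SE 0.16, edgeR adjusted p = 0.0123) and Egr1 (1.30, SE 0.36, edgeR adjusted p = 0.0055) were higher in AL mice of 25-40. Without AL mouse 29 the value of Egr1 was 0.94 (SE 0.33, adjusted p = 0.0259) and that of Junb 0.47 (SE 0.17, adjusted p = 0.0272). In cortex edgeR called 0 of 10 members beside 12.6% of genes, with 2 members and 26.8% of genes at an unadjusted p under 0.05 and 1 member, Fosb, called by DESeq2. These contrasts use the same AL libraries as the diet comparisons. Some marker sums of these AL groups follow, for mice 1-16 and 25-40 in turn. In liver the medians were 148 and 255 CPM for macrophage, 13.2 and 20.1 CPM for leukocyte and 69.5 and 69.4 CPM for fibroblast genes. The share of counts on mitochondrial genes there had medians of 20.6% and 13.7%. In muscle the medians were 37.8 and 20.7 CPM for macrophage and 5.69 and 13.7 CPM for leukocyte genes. Their part in these differences was not tested.

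The responses of the tissues were compared within mice, with the mouse, as numbered in the library names, as a block. In mice 1-16 the response of Jun was higher in liver than in cortex (log2 difference 1.24, SE 0.26, edgeR adjusted p = 0.000372) and higher in muscle than in cortex (1.27, SE 0.25, edgeR adjusted p = 0.00237). The response of Junb was also higher in liver than in cortex (log2 difference 1.16, SE 0.40, edgeR adjusted p = 0.03). Its log2 fold changes within those tissues had opposite signs, 0.42 in liver and -0.67 in cortex. Egr2, Arc and Npas4 in liver and Npas4 in muscle entered these fits only through a tissue where they are high, and are not counted. That leaves 2 of 7 members for liver against cortex, beside 26.7% of 21608 genes, and 1 of 9 for muscle against cortex, beside 3.8%. Between liver and muscle edgeR called 0 of 7 members beside 31% of genes, with 0 members and 39.9% of genes at an unadjusted p under 0.05. Those shares are of every gene in the fit, and over genes that passed the filter in both tissues they were 36.7%, 5.44% and 44.2% in turn, with 53.8% at an unadjusted p under 0.05 for liver against muscle. Each pair of these contrasts shares the libraries of a tissue.

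In mice 25-40, where Fosb is not counted for liver either, edgeR called 0 of 6 members in each contrast with liver and 0 of 9 for muscle against cortex. For liver against muscle it called 0.0047% of 21292 genes, and 1 member and 7.74% of genes had an unadjusted p under 0.05. For liver against cortex it called 0%, with 3 members and 9.57% of genes at such a p, and for muscle against cortex 0.0047%, with 2 members and 5.45% of genes. Over genes that passed in both tissues the unadjusted shares were 6.87%, 9.92% and 5.48%, and the shares called 0.00749%, 0% and 0.00698%. The lowest p of a member was that of Ier2 for liver against cortex (log2 difference 1.31, SE 0.25, edgeR adjusted p = 0.138), which passed when the mouse was not a block (adjusted p = 0.0301). DESeq2 was not run on the tissue contrasts.

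Within a diet group the cortex members varied together from mouse to mouse. In mice 1-16, AL mouse 3 was the highest of its group for 9 of 10 members and AL mouse 6 the lowest for 6, while IF mouse 10 was the highest for 8 and IF mouse 15 the lowest for 8. In mice 25-40, AL mouse 29 was the lowest for 9 of 10 members, IF mouse 33 the highest for 9 and IF mouse 40 the lowest for 7. The mean log2 deviation from the group mean over the members ran from -1.34 (AL mouse 29) to 1.18 (IF mouse 33) over all 31 mice. Fewer cells of a type and less RNA per cell cannot be told apart in whole tissue.

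**Figure D2:**
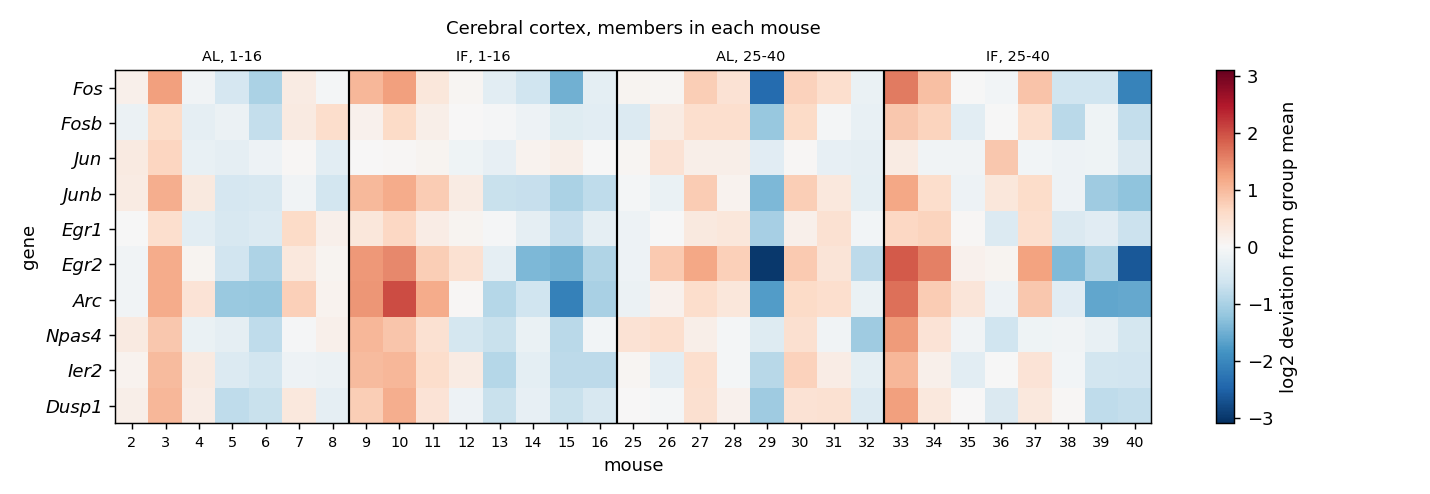
Deviation of each member from the mean of its diet group in cortex, on a log2 scale given by the colour bar (y axis: genes; x axis: mice, in 4 groups). Columns tend to be of 1 colour from top to bottom, as in AL mouse 3 and IF mouse 33 (red) and AL mouse 29 and IF mouse 15 (blue), and Jun is the palest gene.

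Correlations over mice, taken after subtracting each group's mean, put numbers on this. In cortex all 45 pairs of members had a positive Pearson r over 31 mice (median 0.797, range 0.254 to 0.961), and 41 pairs had an adjusted permutation p under 0.05 among the 109 pairs computed in the 3 tissues. The closest pair was Fos and Egr2 (Pearson r = 0.961, Spearman rho = 0.952, permutation p = 1e-05 for each, the smallest that 100000 permutations can give, adjusted 3.63e-05), with r = 0.935 without the 2 mice farthest from the median of Fos. Junb with Ier2 (r = 0.950, rho = 0.952) and Arc with Dusp1 (r = 0.939, rho = 0.938) followed, at the same smallest permutation p. Jun stood apart with lower values, its weakest relation being with Egr1 (r = 0.254, permutation p = 0.171, rho = 0.332, permutation p = 0.0706, adjusted 0.241 and 0.113). Its highest r was with Junb (0.479, permutation p = 0.00586, adjusted 0.0128). By Pearson r its pairs with Junb, Egr2, Fos, Fosb and Dusp1 passed, and those with Egr1, Arc, Npas4 and Ier2 did not.

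In liver the 28 pairs of members, with Arc and Fosb at low counts, had a median r of 0.267 over 32 mice and 9 had an adjusted permutation p under 0.05, the highest being Jun with Junb (r = 0.709, permutation p = 2e-05, adjusted 6.61e-05; rho = 0.576, permutation p = 0.00052, adjusted 0.00145), with r = 0.581 without 2 mice. In muscle the 36 pairs had a median r of 0.183 and 13 passed, 12 of them positive, the highest being Egr1 with Ier2 (r = 0.604, permutation p = 0.00018, adjusted 0.000516; rho = 0.619, permutation p = 0.00027, adjusted 0.000795). No test compared the tissues in this respect. Between tissues of the same mouse, 0 of 25 relations of a member with itself passed, the nearest being Junb in liver and cortex (r = -0.476, permutation p = 0.00605, adjusted 0.151; rho = -0.383, permutation p = 0.034, adjusted 0.551), with r = -0.315 without 2 mice.

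The genes whose deviations most resembled the mean of the 10 members in cortex, among 15393 candidates over 31 libraries, were led by Nr4a1, an orphan nuclear receptor and itself an immediate early gene (r = 0.978), followed by 1700016P03Rik (0.961), Dusp6 (0.910), Btg2 (0.887), Per1 (0.883) and Egr4 (0.882). The median r of all candidates was 0.003. In liver the likeness was weaker, with Rab35 (r = 0.714 over 32 libraries and 8 members), Fabp5 (0.667) and Igfbp1 (0.647) first, the last of which was 0.428 without 2 mice. In muscle Hpdl (r = 0.728, 9 members) and Gm2011 (0.626) came first, and Btg2 (0.590) was among the 10 closest. These likenesses are descriptions over mice that share libraries, and carry no test.

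Other genes of the pathway were taken in lists chosen by role but with earlier results of these data known, so their counts describe and do not test. They stand beside the share of all genes that passed in mice 1-16: 23.5% higher and 21.1% lower in liver, 11.5% and 11.6% in muscle and 3.79% and 3.43% in cortex. Of 22 rapid-response genes tested in liver, 12 were higher and 2 lower under IF, with a median log2 fold change of 0.66 beside 0.06 over all genes. Gadd45b, a stress-induced gene (log2 fold change 3.44, SE 0.37, edgeR adjusted p = 1.18e-06), Ccn2 (2.20, SE 0.30, edgeR adjusted p = 4.52e-06) and Nr4a1 (1.40, SE 0.26, edgeR adjusted p = 0.000123) rose most, and Zfp36, which speeds the decay of AU-rich RNAs, fell by 1.09 (SE 0.18, edgeR adjusted p = 2.63e-05). In muscle 12 of 23 rose and 1 fell, with a median of 0.48 beside 0.01: Nr4a3 (2.92, SE 0.46, edgeR adjusted p = 0.000474) and Zfp36 (1.32, SE 0.23, edgeR adjusted p = 0.000768) rose and Socs3 fell by 1.21 (SE 0.29, edgeR adjusted p = 0.00553). In cortex 0 of 23 rose and 2 fell, Nr4a2 (-1.22, SE 0.26, edgeR adjusted p = 0.0155) and Nr4a3 (-0.74, SE 0.19, edgeR adjusted p = 0.0284), with a median of -0.07 beside -0.005.

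Of the other AP-1 factors, Maff, a small Maf protein, rose in liver (log2 fold change 2.63, SE 0.25, edgeR adjusted p = 1.1e-08) and in cortex (0.84, SE 0.20, edgeR adjusted p = 0.0186) of mice 1-16. Liver counted 3 of 7 higher and 2 lower (median 0.47), cortex 1 higher and 2 lower (Fosl2, -0.65, and Jund, -0.35; median -0.05), and muscle 0 of 6 in either direction by edgeR (median -0.07). Among the 4 EGR factors and corepressors, of which 2 were tested in liver and in muscle, Nab2, a corepressor of EGR proteins, fell in liver (-1.59, SE 0.21, edgeR adjusted p = 3.18e-06) and muscle (-0.68, SE 0.16, edgeR adjusted p = 0.00304), Nab1 rose in liver (0.64, SE 0.12, edgeR adjusted p = 0.000149), and 0 of 4 passed in cortex by edgeR.

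Upstream of the members, 17 genes of SRF, CREB and MAP kinase signalling were tested in each tissue of mice 1-16. In muscle 6 fell and 0 rose, led by Mrtfa, a coactivator of SRF (-1.27, SE 0.13, edgeR adjusted p = 1.99e-06), Crtc1, a coactivator of CREB (-0.47, SE 0.07, edgeR adjusted p = 8.94e-05), and Srf itself (-0.45, SE 0.06, edgeR adjusted p = 3.58e-05), though the list's median was -0.03 beside 0.01. In liver 5 rose and 2 fell (median 0.03 beside 0.06), a share near that of all genes, and in cortex edgeR called 0. Of 12 feedback phosphatases and Sprouty genes, 4 rose and 2 fell in liver (Dusp8 1.75, Spred2 -1.38), again near the share of all genes, 2 fell in muscle (Dusp10 -1.11, Dusp8 -0.76), and 0 passed in cortex by edgeR.

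Of 14 neuronal activity-regulated genes in cortex of mice 1-16, 0 rose and 2 fell under IF: Bdnf, a neurotrophin (-0.46, SE 0.12, edgeR adjusted p = 0.0249), and Rheb (-0.22, SE 0.06, edgeR adjusted p = 0.0228), with a median of -0.19 beside -0.005. Of 10 tested in liver 3 rose and 2 fell, and of 9 tested in muscle 1 rose and 1 fell, shares near those of all genes. The 9 glucocorticoid-induced genes had 6 higher and 0 lower in liver (median 1.06), 6 and 0 in muscle (median 0.63) and 4 and 0 in cortex (median 0.68). Per1, a clock gene that also follows cAMP and glucocorticoids, rose by 4.53 on the log2 scale in liver (SE 0.29, edgeR adjusted p = 1.8e-09), Ddit4 by 2.88 in muscle (SE 0.31, edgeR adjusted p = 1.41e-05) and Sgk1 by 1.54 in cortex (SE 0.21, edgeR adjusted p = 0.00172).

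In mice 25-40 edgeR called 0 genes of any of these 7 lists in any tissue, where almost no gene passed at all. The interaction test showed differences between the sets for several: of 22 rapid-response genes in liver the log2 difference was below 0 for 12 that passed and above 0 for 1, where 23.7% of all genes passed in either direction. Gadd45b had the lowest of these differences (-3.26, SE 0.50, edgeR adjusted p = 1.33e-05). In muscle it was below 0 for 10 of 23 and above 0 for 1, where 14.2% of all genes passed, and Klf10 is 1 of the 10 (-1.72, SE 0.19, edgeR adjusted p = 1.13e-06). For glucocorticoid-induced genes 4 of 9 in liver, 6 in muscle and 3 in cortex (2.03% of all genes there) had a difference below 0 and 0 above. In cortex Homer1 (0.66, SE 0.17, edgeR adjusted p = 0.0319) and Bdnf (0.65, SE 0.18, edgeR adjusted p = 0.0493) had a difference above 0.

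Marker genes of other cell types also passed in the comparisons of mice 1-16, and some are given here. Their counts stand beside 23.5% of all genes higher and 21.1% lower in liver, 11.5% and 11.6% in muscle and 3.79% and 3.43% in cortex, and with so few genes in a list several lie near those shares. In liver of mice 1-16, where Jun rose, 3 of 5 erythrocyte genes were higher under IF, and their summed level lay between 362 and 956 CPM under AL (median 569) and between 667 and 6879 CPM under IF (median 2070), with Hba-a1 the most abundant and none at 0. Of fibroblast and stellate genes there, 2 of 4 were higher (summed medians 69.5 and 109 CPM, Dcn the most abundant), of macrophage genes 2 of 5 (148 and 206 CPM, Clec4f), of endothelial genes 1 of 4 (Kdr, also the most abundant), whose sum lay between 42.7 and 61.0 CPM under AL (median 45.6) and between 64.8 and 109 CPM under IF (median 75.7), and of cholangiocyte genes 2 of 3, with 1 lower (14.2 and 16.1 CPM). The share of counts on mitochondrial genes there lay between 14.5% and 25.1% under AL (median 20.6%) and between 8.75% and 13.9% under IF (median 10.7%). In muscle of mice 1-16, where Jun also rose, 3 of 4 adipocyte genes were higher, and their sum lay between 9.81 and 121 CPM under AL (median 34.3) and between 35.8 and 613 CPM under IF (median 176), with Cidec the most abundant and none at 0. Also in muscle, 2 of 5 muscle fibre genes were lower (summed medians 133209 and 129332 CPM, Acta1 the most abundant), 2 of 4 fibroblast genes were lower (357 and 297 CPM, Dcn), and 1 of 2 hepatocyte genes tested was higher (4.797 and 85.6 CPM for the list, Cyp2e1 the most abundant). In cortex of mice 1-16, 3 of 4 oligodendrocyte genes were higher (summed medians 4468 and 6528 CPM, Mbp the most abundant, none at 0). Lower there were 1 of 4 endothelial genes (Cldn5, the most abundant, with summed medians of 146 and 109 CPM), 1 of 4 astrocyte genes (Aqp4, 55.1 and 37.4 CPM), Sox9 (21.5 and 15.1 CPM) and Ptprc. The 4 astrocyte genes had summed medians of 1761 and 1704 CPM, with Slc1a2 the most abundant. Of neuronal genes 0 of 5 passed by edgeR, and their sums had medians of 6093 and 6179 CPM. Where 8 of 9 members had a negative value, in muscle of mice 25-40, the 4 endothelial genes had summed medians of 143 and 106 CPM under AL and IF and log2 fold changes from -0.61 (Cldn5) to -0.37 (Pecam1), the lowest edgeR adjusted p being 0.314. Leukocyte genes there had a median log2 fold change of -0.41. In liver of mice 25-40 such medians went both ways. They were 0.43 for fibroblast, 0.19 for hepatocyte and 0.11 for cholangiocyte genes. Those of erythrocyte, macrophage, endothelial and leukocyte genes were -0.36, -0.25, -0.19 and -0.07. The 1 adipocyte gene and the 1 Schwann cell gene tested there had -0.50 and -0.78. In cortex of mice 25-40, 8 of 10 members had a negative value. The sum of the hepatocyte list there, with Ttr the most abundant, reached 119 CPM under AL (median 19.5) and 4270 CPM under IF (median 10.1). Erythrocyte genes there had summed medians of 362 and 253 CPM under AL and IF, and neuronal genes 6268 and 6298 CPM. The part of these markers in the members' values was not tested.

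Reads of overlapping genes may bear on 3 members, since the strand setting of the authors' counting is not stated. The libraries were directional, and reads shared between the genes were not measured. On GRCm39, Jun (chromosome 4, 94937271 to 94940459, minus strand) shares 689 bases with Junos on the other strand, which stood at medians of 7.33 and 7.03 CPM in AL and IF muscle of mice 1-16 and did not pass there (log2 fold change -0.12, edgeR adjusted p = 0.557). Junb (chromosome 8, 85701113 to 85705347, minus strand) shares 351 bases with Prdx2 on the other strand, which rose in liver of mice 1-16 (0.46, edgeR adjusted p = 0.00157). The annotated span of Dusp1 (chromosome 17, 26724564 to 26781102, minus strand) overlaps 5 genes, 3 of them on the other strand. Of these Ergic1 shares 640 bases, stood at medians of 37.4 and 29.7 CPM in AL and IF muscle of mice 1-16, and was lower under IF there (-0.42, edgeR adjusted p = 0.00021) and in liver of those mice (-0.24, edgeR adjusted p = 0.0495), and an unnamed gene that shares 379 bases stood at 9.18 and 10.7 CPM in the same muscles.

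The members that vary together in cortex can be compared in their promoters. RefSeq promoters, whose table names GRCm38.p6, were found for 7 of 10 members (not for Egr1, Arc and Ier2), each of 300 bases from 250 before the start to 50 from it on, and were placed on GRCm39 by exact match. Both strands were searched for the CArG box that SRF binds, the CRE (TGACGTCA), its core (TGACG, which the CRE holds on each strand), the AP-1 site (TGACTCA or TGAGTCA) and the EGR site (GCGGGGGCG or GCGTGGGCG). The core was in the first window of 5 of 7 members (Fos, Fosb, Junb, Npas4 and Dusp1) and in 21.0% of 27025 promoters, the CRE in Dusp1 and 1.88% of promoters, the EGR site in Fosb and 3.49%, the AP-1 site in 0 of 7 and 5.17%, and the CArG box in 0 of 7 first windows and 1.57%. Egr2 has 5 listed starts, and 4 of its windows, all but the first, held a CArG box. Its first window, the one counted above, held none of the motifs. Windows 3 to 5 also held the core, 2 times each, and that of start 3 is the one shown. The windows of Fos and Egr2, the closest pair in cortex, are shown with that of Fosb for its EGR site and that of Dusp1 for its CRE, 5′ to 3′ on the gene's strand and with the matched letters in capitals. Fos lies at chr12:85520414-85520713 (plus), Egr2 with start 3 of 5 at chr10:67373449-67373748 (plus), Fosb at chr7:19043921-19044220 (minus) and Dusp1 at chr17:26727397-26727696 (minus). A match is a description of letters, and its absence says only that they are not in this window.
Fos: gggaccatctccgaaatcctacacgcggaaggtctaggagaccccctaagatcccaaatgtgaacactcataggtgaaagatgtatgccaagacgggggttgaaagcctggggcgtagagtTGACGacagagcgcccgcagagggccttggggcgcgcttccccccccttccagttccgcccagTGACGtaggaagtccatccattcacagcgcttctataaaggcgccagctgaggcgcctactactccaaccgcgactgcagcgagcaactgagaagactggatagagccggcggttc
Egr2: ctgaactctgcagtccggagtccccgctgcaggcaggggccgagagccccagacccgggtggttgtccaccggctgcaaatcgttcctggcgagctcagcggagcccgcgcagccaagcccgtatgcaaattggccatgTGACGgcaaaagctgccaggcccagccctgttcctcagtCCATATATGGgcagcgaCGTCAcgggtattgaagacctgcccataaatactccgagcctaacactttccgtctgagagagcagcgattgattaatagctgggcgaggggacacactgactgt
Fosb: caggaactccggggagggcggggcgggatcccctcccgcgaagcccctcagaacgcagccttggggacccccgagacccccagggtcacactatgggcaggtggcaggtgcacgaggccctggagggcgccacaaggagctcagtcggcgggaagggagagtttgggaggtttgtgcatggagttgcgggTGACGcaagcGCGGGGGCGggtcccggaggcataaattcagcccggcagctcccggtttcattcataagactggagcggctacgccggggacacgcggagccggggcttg
Dusp1: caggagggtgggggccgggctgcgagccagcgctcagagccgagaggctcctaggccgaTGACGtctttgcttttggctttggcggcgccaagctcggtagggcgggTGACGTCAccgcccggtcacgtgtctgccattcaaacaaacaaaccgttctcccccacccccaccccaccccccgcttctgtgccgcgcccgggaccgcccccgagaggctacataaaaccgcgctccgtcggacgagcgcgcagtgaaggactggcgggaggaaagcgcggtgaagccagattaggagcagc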

How the data were processed

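Gene expression was measured by RNA sequencing in 96 libraries of liver, muscle and cortex. The authors aligned reads to GRCm39 with HISAT2 2.0.5 and counted them per gene with featureCounts 1.5.0-p3, and the deposited values are raw read counts, with no normalization. The deposited gene length, in bases, was used for TPM only.

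Groups follow the labels (tissue, diet, and sex or set of mice), and cortex of AL mouse 1 was omitted. Members and lists were chosen with earlier results of these data known. Each tissue and set of mice was fitted with edgeR 4.0.16 in R 4.3.3 (TMM factors, robust quasi-likelihood test), over genes kept by its filter (minimum count 10, minimum total 15), with Benjamini-Hochberg adjustment over all genes and a threshold of 0.05. Differences between sets were fitted as interactions over both sets, and those between tissues with the mouse as a block. CPM are counts over library totals. Log2 CPM for relations across mice had a prior count of 2, and their two-sided p came from 100000 permutations. Named were the members, up to 3 genes in each direction of a list and comparison by the largest change among those that passed, and per tissue the 10 genes of at least 1 CPM closest to the members' mean. Alternatives were RLE factors, library totals alone, DESeq2 1.42.0, no filter beyond 1 count, a replicate block, other sets of libraries and each library left out. The tests were also run on simulated data, with no outcome given here. Pandas 2.3.3 and scipy 1.17.1 in Python 3.11.15 and matplotlib 3.10.9 were used.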

Additional observations from a re-analysis of the deposited data

Results flagged for a closer look

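A sample was set apart where its gap to the nearest other sample was too large a share of its group's range by Dixon's criterion. Of the 91 groups checked, 15 had such a sample. Chance gives about 1 in 20 only where values are normally distributed. CPM were checked without a log scale, and each sample set apart was the highest of its group, so that rate is no measure of an excess here. Members of a tissue vary together, so these are not independent.

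In liver of mice 1-16, AL mouse 2 had 3.24 CPM of Fos, where the nearest mouse had 1.83. AL mouse 8 had 95.6 CPM of Egr1, where the nearest had 23.1, and IF mouse 12 had 18.7 CPM of Egr1, where the nearest had 8.93. In liver of mice 25-40, AL mouse 29 stood high in 3 members, with 80.0 CPM of Jun (nearest 22.8), 174 CPM of Junb (nearest 73.6) and 79.9 CPM of Dusp1 (nearest 19.2). In cortex the same mouse was the lowest of its group for 9 of 10 members.

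In muscle, IF mouse 14 had 9.74 CPM of Fos (nearest 5.51), and IF mouse 34 had 19.1 CPM of Junb (nearest 13.5). In cortex of mice 1-16, AL mouse 3 had 108 CPM of Fos (nearest 53.8), 330 CPM of Junb (nearest 179) and 45.7 CPM of Ier2 (nearest 26.96). In cortex of mice 25-40, IF mouse 33 had 610 CPM of Arc (nearest 310), 61.0 CPM of Npas4 (nearest 31.1), 35.7 CPM of Ier2 (nearest 21.7) and 81.8 CPM of Dusp1 (nearest 41.2).

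The diet response differed between the sets of mice by the interaction test of edgeR for Jun in muscle (log2 difference -0.73) and for Egr1 in liver (log2 difference 2.99). Without AL mouse 8 the latter was 2.07 and no longer passed (adjusted p = 0.0678).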

How the results depend on the processing

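For single members with a call, 45 of 49 values under other settings kept their direction and their side of the threshold and 4 missed it, and when libraries were left out in turn 40 of 48 did and 8 missed it; 0 reversed. The log2 fold change of Jun ranged from 0.65 to 0.93 in liver and from 0.71 to 0.82 in muscle of mice 1-16 with 1 mouse left out, and that of Ier2 in muscle from -0.45 to -0.32. The causes of the changes below were not tested.

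In liver of mice 1-16 the members called were 2 by library totals alone, 2 by DESeq2, 0 with no filter, 2 with the replicate block and 2 without AL mouse 2 and IF mouse 10. In muscle of mice 1-16 they were 1 by library totals alone and 1 without AL mouse 2 and IF mouse 10, and by library totals 2549 genes were higher and 1073 lower, where TMM gave 1727 and 1738. In cortex of mice 1-16 members called were 2 by DESeq2, 1 with the replicate block and 1 without AL mouse 2 and IF mouse 10, and genes called 2259 by DESeq2, 382 with the replicate block, 499 without AL mouse 2 and IF mouse 10, and 295 with AL mouse 1 included. The replicate block in that cortex also left out IF mouse 9, whose replicate number is that of the omitted AL mouse 1. In mice 25-40, genes called by DESeq2 were 6 in liver, 91 in muscle and 73 in cortex, with 1 member in cortex; 5 genes were called in muscle with no filter, and 0 in cortex by library totals or with the replicate block. The same replicate number in AL and IF mice pairs different animals: over those pairs the median correlation of deviations lay between -0.101 and 0.0743, and not every pair was above 0.1 in any comparison. Between the sets, AL mice in liver gave 2 members by RLE, 2 by DESeq2 and 2 without AL mouse 29, AL mice in cortex gave 1 by DESeq2, and the liver interaction gave 0 without AL mouse 8. Liver against cortex in mice 25-40 gave 1 without the mouse block. Leaving out mice 8, 12 or 29 in liver, or 14, 29 or 34 in muscle, in the contrasts between sets was chosen after seeing the data.

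With each library left out in turn, members called ranged from 0 to 2 in liver, 1 to 3 in muscle and 0 to 2 in cortex of mice 1-16, and were 0 throughout in mice 25-40. In liver they were 0 without mouse 11 and 2 without mouse 1, 2, 3, 4, 8, 10 or 12, in muscle 1 without mouse 1, 2, 3, 11, 13, 15 or 16, and in cortex 2 without mouse 6 and 1 without mouse 4, 5, 8 or 10. Genes called ranged from 6842 to 7218 in liver, 2933 to 3740 in muscle and 638 to 2059 in cortex of mice 1-16: in cortex they were 638, 766, 771, 878, 866 and 823 without mice 2, 3, 5, 11, 13 and 14 and 2059 without mouse 12. In mice 25-40 they ranged from 0 to 0 in liver, 1 to 3 in muscle (3 without mouse 27, 2 without mouse 33) and 0 to 254 in cortex (254 without mouse 26, 2 without mouse 32, 1 without mouse 27, 29 or 36, 0 without each of the others).

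Low counts left Egr2, Arc and Npas4 in liver, Fosb too in liver of mice 25-40, and Npas4 in muscle untested by diet, and Arc and Fosb had wide errors in the liver contrasts between sets. Sex, set, and whatever else differed between the sets cannot be told apart, and the hour of death of each mouse is not given.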
